A study of Homo sapiens with 27 samples.

Results

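The ADAM and ADAMTS genes encode 2 related families of zinc metalloproteases, and all 39 protein-coding members, 20 ADAM and 19 ADAMTS genes, were taken from the 24566 rows of a count table of human cancer cells by matching the Entrez ID to a symbol of the form ADAM or ADAMTS with a number. The family was selected on the measured level of ADAM11, which was lower when CKI was added to doxorubicin, so that comparison is given as a description for every member and without a p-value. The RNA came from A431, an established epidermoid carcinoma line, and from MDA-MB-231, an established adenocarcinoma line of the breast, 48 h after treatment began. CKI is Compound Kushen Injection, an extract of the roots Kushen and Baituling, and was given at 1 mg/ml. Doxorubicin is a DNA-damaging anthracycline, and its dose is not printed because the labels list more than 1 dose without assigning it. 5-FU (5-fluorouracil), an antimetabolite, was given at 10 ug/ml. The A431 cells were untreated, given a vehicle control, CKI, doxorubicin, or CKI with doxorubicin, and the MDA-MB-231 cells were untreated, given CKI, 5-FU, or CKI with 5-FU. Each of the 9 groups had 3 libraries that the series calls biological replicates, which gave 27 libraries. Which agent the vehicle was is not stated, each line is a single cultured line without stroma, and no MDA-MB-231 vehicle group was analysed here.

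ADAM proteins sit in the cell membrane. Those with an active protease domain, such as ADAM10 and ADAM17, cut the outer parts of other membrane proteins free, a step called shedding that releases growth factors, cytokines and adhesion molecules. ADAM11, ADAM22 and ADAM23 lack protease activity and bind LGI proteins at the cell surface. ADAMTS proteins are secreted, carry thrombospondin repeats and cut components of the extracellular matrix, among them aggrecan, versican, procollagens and von Willebrand factor.

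Total counts ranged from 17757206 to 21756536 in A431 and from 19871048 to 22809339 in MDA-MB-231, so that 3 counts corresponded to between 0.133 and 0.186 TMM-scaled CPM. CPM are counts scaled to a common library size, here with TMM factors over all libraries, and a value after ± is the SD over n = 3 libraries unless it is called a standard error (SE). CPM is a share of the library, so fewer cells with a transcript and less transcript per cell cannot be told apart. The 9 keratinocyte-type markers of A431 summed to between 7463 and 14128 CPM in A431 and to between 284 and 665 CPM in MDA-MB-231, where DSG3 and DSC3 lay under 1 CPM. The 8 markers of MDA-MB-231 summed to between 2848 and 5184 CPM in that line and to between 775 and 1886 CPM in A431, where untreated cells had SPARC under 1 CPM. Of those 8 markers 6 had every untreated MDA-MB-231 library above every untreated A431 library, CAV1 overlapped, and KRT18 had every untreated A431 library above. All replicates differed by more than sampling noise. Untreated MDA-MB-231 replicate 1 stood apart from the other replicates of its group, and leaving it out ended 2 of the calls below, those of ADAM11 with CKI and of ADAM10 with 5-FU in that line. A gene was called changed when edgeR's quasi-likelihood test gave a Benjamini-Hochberg adjusted p under 0.05 over all genes and the log2 fold change was beyond 1 in either direction.

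Of the 39 members, 27 reached a mean of 1 CPM in at least 1 group and 14 did so in every group. The summed level of the family was 1400.3 ± 35.5 CPM in untreated A431 cells, 1541 ± 46.2 with vehicle, 2192 ± 28.9 with CKI, 1172 ± 27.9 with doxorubicin and 1269 ± 24.7 with both drugs. In MDA-MB-231 it was 1502 ± 149 CPM untreated, 1309.6 ± 28.4 with CKI, 1015 ± 13.8 with 5-FU and 1156 ± 12.7 with both. The 12 members under 1 CPM in every group included 5 that were called in at least 1 comparison, namely ADAM18, ADAM29, ADAMTS2, ADAMTS5 and ADAMTS19. The remaining 7, ADAM2, ADAM7, ADAM20, ADAM30, ADAMTS8, ADAMTS10 and ADAMTS18, passed the low-count filter in none of the fits, and their highest group mean was 0.608 CPM, for ADAMTS8 with doxorubicin. ADAM2, ADAM7 and ADAM18 belong to the sperm-surface group of the family.

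**Figure D1:**
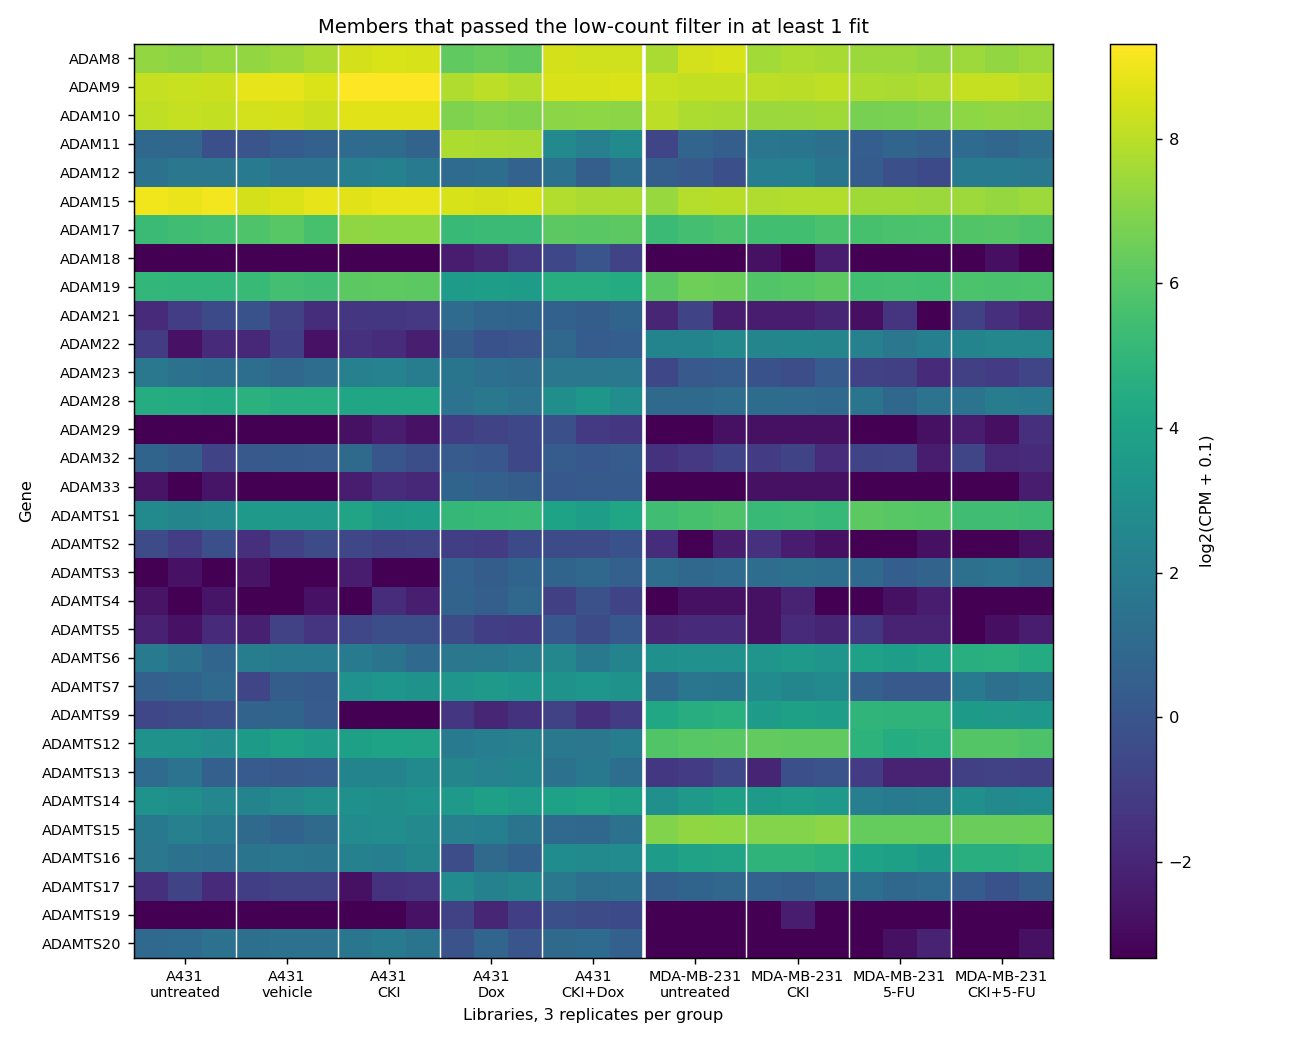
Level of the 32 members that passed the low-count filter in at least 1 fit, as log2(CPM + 0.1), in rows, and the 27 libraries in columns, 3 to a group, with a thick white line between the cell lines. ADAM8, ADAM9, ADAM10 and ADAM15 are bright in every library, and ADAM11 is bright in the 3 doxorubicin libraries of A431 and in no other library.

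To compare levels between genes, CPM was divided by the length of the canonical transcript in kb. In untreated A431 cells ADAM15, a sheddase with an adhesive disintegrin domain, had the highest level at 177 ± 8.07 CPM per kb. ADAM9 followed at 73.7 ± 2.88, ADAM8 at 45.2 ± 3.18 and ADAM10 at 25.7 ± 0.949 CPM per kb, and the ranges of these neighbours did not overlap. The highest ADAMTS gene in A431, ADAMTS14 at 1.32 ± 0.278 CPM per kb, overlapped ADAMTS1 at 1.13 ± 0.1. In untreated MDA-MB-231 cells ADAM8 (95.2 ± 27.8 CPM per kb), ADAM15 (74.4 ± 15.9) and ADAM9 (70.7 ± 3.24) led, and their ranges overlapped. ADAMTS15, a proteoglycan-cleaving member, came next at 22.7 ± 2.43 CPM per kb and overlapped ADAM10 at 20.6 ± 2.57.

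**Figure D2:**
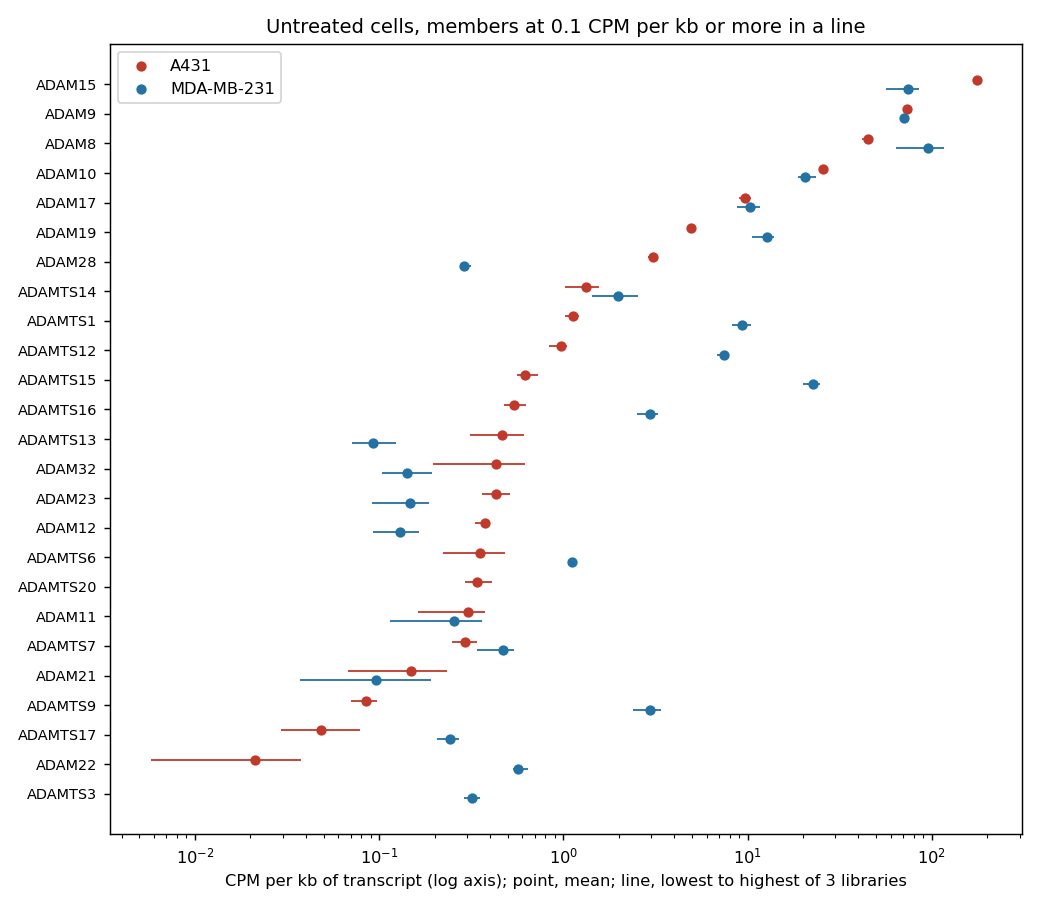
Level of 25 members in untreated A431 and MDA-MB-231 cells in CPM per kb of transcript (log axis), with points for the mean and lines from the lowest to the highest of 3 libraries, for members at 0.1 CPM per kb or more in either line. A line with a library at 0 is not drawn. ADAM15 stands at 177 CPM per kb in A431, and ADAMTS15 at 22.7 CPM per kb in MDA-MB-231 against 0.621 in A431.

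Of 26 members tested between the untreated lines, 8 were higher in A431 and 11 in MDA-MB-231, or 73.1%, against 42.9% of all genes tested (22.5% higher in A431 and 20.4% in MDA-MB-231). Members such as ADAMTS20 and ADAMTS3 passed the low-count filter only through the line where they are high and so had to differ. Among the 22 members with a mean of at least 1 CPM over these libraries, 16 were called, against 40% of all such genes. The ADAMTS genes lay mostly on the MDA-MB-231 side. ADAMTS15 had 3.36, 4.36 and 3.48 CPM in the A431 libraries and 120.0, 148 and 142 CPM in those of MDA-MB-231, a log2 difference of -5.14 with an SE of 0.12 (edgeR adjusted p = 3.2e-13). ADAMTS12, which cuts cartilage oligomeric matrix protein, had 8.31 ± 0.965 CPM in A431 and 63.9 ± 4.67 CPM in MDA-MB-231, and ADAMTS1, a versican-cleaving protease, had 5.87 ± 0.519 and 48.6 ± 5.79 CPM. In each of these genes all MDA-MB-231 libraries lay above all A431 libraries. ADAMTS9, a versican-cleaving protease, had 0.649 ± 0.103 CPM in A431 and 22.4 ± 3.86 in MDA-MB-231, and ADAMTS3, a procollagen N-proteinase, had 1 count over the 3 A431 libraries against 122 in MDA-MB-231, a ratio of 0.00984 (95% exact counting interval from 0.000247 to 0.0559). ADAM22, ADAM19, ADAM8, ADAMTS6, ADAMTS16 and ADAMTS17 were also higher in MDA-MB-231.

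On the A431 side, ADAM28, a protease first known from lymphocytes, had 22.6, 21.6 and 20.2 CPM in A431 against 1.94, 1.94 and 2.21 CPM in MDA-MB-231 (log2 difference 3.45, SE 0.1, edgeR adjusted p = 2.7e-12). ADAM15 had 520.5 ± 23.7 CPM in A431 and 218 ± 46.7 in MDA-MB-231, and its call was lost with offsets for GC content and length (log2 difference 0.87) and with vehicle as the A431 control (0.978). ADAMTS20 had 110 counts in A431 and 0 in MDA-MB-231, at least 44-fold higher against a floor of 3 counts over the group. ADAM12, ADAM23, ADAM32, ADAMTS2 and ADAMTS13 were the other members higher in A431. The call for ADAM8 was lost without untreated MDA-MB-231 replicate 2 (log2 difference -0.949) or 3 (-0.864), and that for ADAM32 without untreated A431 replicate 1 (1.22, adjusted p = 0.084). With vehicle as the A431 control the calls for ADAM8 (-0.738) and ADAM19 (-0.895) were lost. ADAM17 had 42.6 ± 3.14 CPM in A431 and 45.4 ± 6.32 in MDA-MB-231, with overlapping libraries.

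In GRCh37 the ADAM11 gene spans 42836356 to 42859214 of chromosome 17 (forward strand), and its canonical transcript has 4614 bases with a GC content of 62.5%. It had 1.74, 1.71 and 0.745 CPM in the untreated A431 libraries, 0.921, 1.16 and 1.42 with vehicle, and 2.02, 2.13 and 1.55 with CKI. With doxorubicin it had 213, 210.5 and 200.3 CPM, and with CKI and doxorubicin together 6.33, 4.44 and 6.28 CPM. The 3 doxorubicin libraries lay far above all the others, and the 3 libraries of the combination lay between them and the remaining A431 groups without touching either. Group means were 1.4 ± 0.566 untreated, 1.9 ± 0.306 with CKI, 208 ± 6.84 with doxorubicin and 5.68 ± 1.07 CPM with both. As a description, the fitted log2 difference was 7.14 (SE 0.14) for doxorubicin against untreated, 1.62 (SE 0.18) for the combination against CKI and -5.16 (SE 0.11) for the combination against doxorubicin. These values share the libraries that led to the choice of ADAM11 and carry no test. CKI alone against untreated A431 cells gave 0.36 (SE 0.25, edgeR adjusted p = 0.21), with overlapping libraries.

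**Figure D3:**
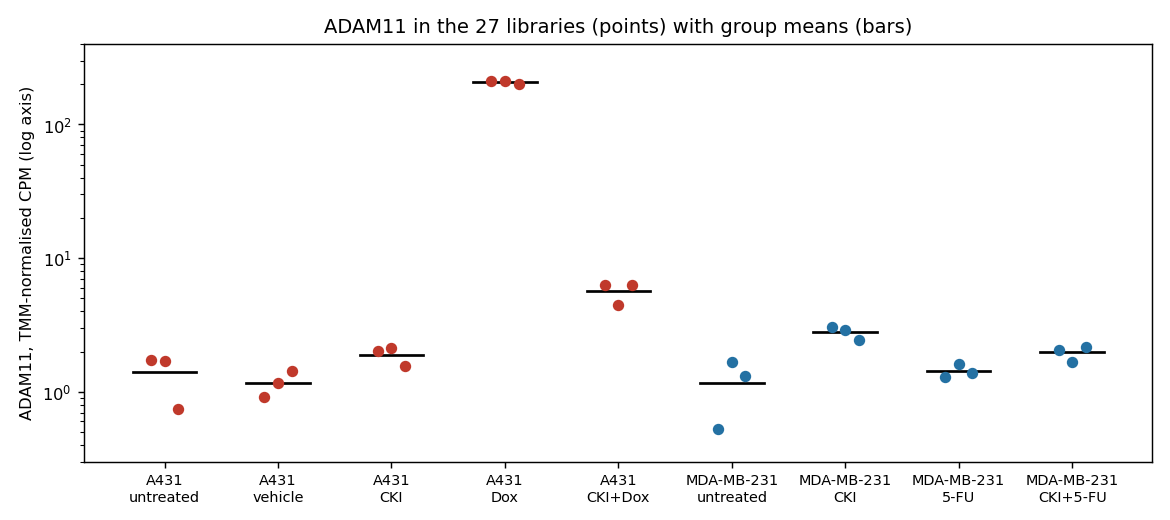
ADAM11 in CPM (log axis) in each of the 27 libraries (points) and as the group mean (bars), A431 in red and MDA-MB-231 in blue. The doxorubicin libraries lie between 200.3 and 213 CPM, those of CKI with doxorubicin between 4.44 and 6.33 CPM, and every other library at or below 3.05 CPM.

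In MDA-MB-231 ADAM11 stayed low in all groups. It had 0.525, 1.66 and 1.32 CPM untreated, 3.05, 2.88 and 2.45 with CKI, 1.28, 1.61 and 1.38 with 5-FU, and 2.05, 1.68 and 2.18 with both. The CKI libraries lay above all untreated libraries (log2 difference 1.23, SE 0.28, edgeR adjusted p = 0.0047). Without untreated replicate 1, which had the lowest value, the difference was 0.899 and the call was lost. Of the other LGI-binding members in A431, ADAM22 went from 0.2 ± 0.153 to 0.977 ± 0.2 CPM with doxorubicin (log2 difference 2.23, SE 0.5). ADAM22 passed the low-count filter only through the doxorubicin groups and so had to differ. ADAM23 had 2.73 ± 0.476 and 2.49 ± 0.409 CPM with overlapping libraries.

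The effect of CKI on A431 cells was compared with untreated cells. CKI raised 7 of the 32 members tested, ADAM8, ADAM17, ADAM19, ADAMTS1, ADAMTS5, ADAMTS7 and ADAMTS13, and lowered 1, ADAMTS9, together 25% against 22.4% of all genes tested (12% up and 10.4% down). The family's share of calls thus lay near that of all genes. The median log2 change of the 32 members was 0.62, or 0.56 with the floor for groups at 0 counts, and that of all genes 0.00. In this comparison the log2 changes of all genes ran with transcript length (Spearman's rho 0.25 across genes), and its part in the median was not tested.

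ADAM17, the TNF-alpha converting enzyme and main sheddase of several EGFR ligands, had 39.3, 43.1 and 45.5 CPM in untreated A431 cells and 148, 144 and 142 CPM with CKI. All CKI libraries lay above all untreated ones (log2 change 1.70, SE 0.079, edgeR adjusted p = 8.7e-15). The vehicle libraries had 56.7, 64.9 and 49.2 CPM, and against them the change was 1.25. The gene (chromosome 2, 9628615 to 9696861 on the reverse strand) shares 11.7% of its exonic bases with genes that include IAH1 on the other strand, and the libraries were unstranded. IAH1 had 46.1 ± 0.569 CPM untreated and 41 ± 1.95 CPM with CKI.

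ADAM8, a sheddase of leukocytes and invasive tumours (chromosome 10, 135075924 to 135090372, reverse strand), had 151, 136 and 156 CPM untreated and 358, 388 and 374 CPM with CKI (log2 change 1.27, SE 0.082, edgeR adjusted p = 2.9e-12). ADAM19, a neuregulin sheddase, rose from 32 ± 0.272 to 71.3 ± 1.85 CPM (1.09, SE 0.07, adjusted p = 2.8e-12). ADAM9 and ADAM10 also had every CKI library above every untreated one, but their log2 changes of 0.98 and 0.51 stayed short of the fold threshold. With vehicle as the control, the changes were 0.985 for ADAM8 and 0.666 for ADAM19, both below the fold threshold. With offsets for GC content and length ADAM19 had 0.93 and lost its call. Of the ADAM genes without protease activity, none of the 6 tested was called, and ADAM23 had the smallest adjusted p with a log2 change of 0.63 (edgeR adjusted p = 0.0021).

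ADAMTS7, which cuts cartilage oligomeric matrix protein (chromosome 15, 79051548 to 79103806, reverse strand), had 1.38, 1.6 and 1.86 CPM untreated and 8.36, 9.78 and 8.82 CPM with CKI (log2 change 2.41, SE 0.17, edgeR adjusted p = 1.3e-11). ADAMTS13, the protease of von Willebrand factor, had 2.04, 2.7 and 1.37 CPM untreated and 5.14, 5.1 and 6.49 CPM with CKI (1.36, SE 0.19, adjusted p = 1.5e-06). For both, the vehicle libraries lay below the untreated ones, at 0.938 ± 0.368 and 1.12 ± 0.0538 CPM. ADAMTS1 rose from 5.87 ± 0.519 to 14.1 ± 2.27 CPM, but vehicle cells had 11 ± 0.213 CPM, and against vehicle the log2 change was 0.262. ADAMTS5, an aggrecan-cleaving protease, rose from 6 counts over the group to 38 (0.12 ± 0.0656 to 0.668 ± 0.0986 CPM). Vehicle cells had 16 counts (0.28 ± 0.169 CPM), and against vehicle the log2 change was 1.11. ADAMTS5 passed the low-count filter only through the groups given CKI, so its call is not read as a test. ADAMTS9 went the other way, with 0.54, 0.662 and 0.745 CPM untreated, 1.5, 1.56 and 1.14 with vehicle and 0 in all 3 CKI libraries, at least 12.3-fold lower than untreated against a floor of 3 counts over the group.

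**Figure D4:**
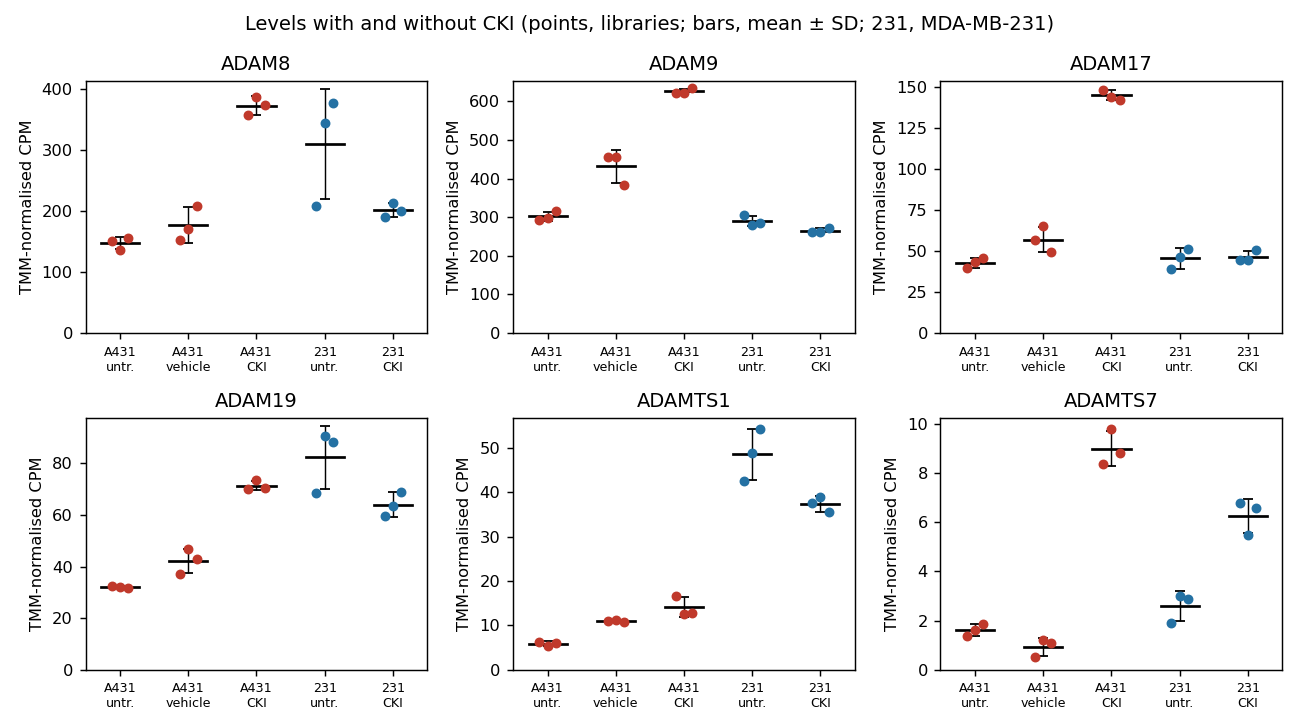
CPM of 6 members in untreated, vehicle-treated and CKI-treated cells, with a point for each library and bars for the mean ± SD over 3 libraries, A431 in red and MDA-MB-231 in blue. In A431 the CKI libraries of ADAM17 lie at 142 to 148 CPM above 39.3 to 45.5 untreated, and in MDA-MB-231 the 2 groups overlap between 38.7 and 51.2 CPM.

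The sequences upstream of 3 of the 7 members that rose with CKI in A431 are given as examples. They are the 250 bases before the start site in RefSeq on GRCh38.p14, 5′ to 3′ on the strand of the gene, which for ADAM17 is chr2:9555831-9556080 on the reverse strand, for ADAM8 chr10:133276869-133277118 on the reverse strand and for ADAMTS7 chr15:78811465-78811714 on the reverse strand. Capitals mark the GC box GGGCGG, the CCAAT box CCAAT and the core of the xenobiotic response element GCGTG, each on either strand.
ADAM17: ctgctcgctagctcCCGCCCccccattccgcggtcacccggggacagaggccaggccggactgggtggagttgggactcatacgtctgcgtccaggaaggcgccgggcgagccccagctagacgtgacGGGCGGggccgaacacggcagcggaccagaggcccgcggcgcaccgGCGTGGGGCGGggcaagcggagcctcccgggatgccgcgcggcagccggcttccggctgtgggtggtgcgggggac
ADAM8: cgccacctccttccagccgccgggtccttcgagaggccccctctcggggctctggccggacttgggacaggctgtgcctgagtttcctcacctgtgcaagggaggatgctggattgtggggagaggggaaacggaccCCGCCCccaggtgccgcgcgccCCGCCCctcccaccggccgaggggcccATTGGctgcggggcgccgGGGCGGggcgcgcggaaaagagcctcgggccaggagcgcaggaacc
ADAMTS7: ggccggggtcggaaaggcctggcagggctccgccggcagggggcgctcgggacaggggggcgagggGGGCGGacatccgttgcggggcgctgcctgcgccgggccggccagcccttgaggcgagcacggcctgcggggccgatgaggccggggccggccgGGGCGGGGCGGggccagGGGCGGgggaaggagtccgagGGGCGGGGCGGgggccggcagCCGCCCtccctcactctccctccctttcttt
The ADAM17 promoter held 3 GC boxes and 1 xenobiotic core, which adjoins the GC box nearest the start, that of ADAM8 held 3 GC boxes and 1 CCAAT box, and that of ADAMTS7 held 7 GC boxes, some of them overlapping by 1 base. Among the other members that rose, the ADAM19 promoter held no match to these motifs, and that of ADAMTS13 held GC boxes and a xenobiotic core. Of the 24 members with a promoter in the RefSeq table, 18 held a GC box, against 42.3% of 27305 promoters of the same length, 7 a CCAAT box (33% of all), and 9 a xenobiotic core (31.9% of all). The AP-1 site TGANTCA was found in 1 (6.6% of all), the TATA box TATAAA in 1 (11.1%) and the cyclic AMP response element TGACGTCA in 0 (1.77%). GC content was 75.6% in the ADAM17, 73.6% in the ADAM8 and 80.8% in the ADAMTS7 promoter, against a median of 58% over all promoters, and its part in these matches was not tested.

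Substrates and regulators of these proteases were read from lists, beside the 12% of all genes that CKI raised and the 10.4% that it lowered in A431. Of 8 EGFR-family ligands tested, which ADAM10 and ADAM17 shed, CKI raised 4 and lowered none. HBEGF, the heparin-binding ligand, rose from 34.5 ± 2.42 to 195 ± 13 CPM (log2 change 2.43, SE 0.071, edgeR adjusted p = 3.4e-18), EREG from 104 ± 6.05 to 279 ± 13.5, TGFA from 49.8 ± 6.78 to 119.5 ± 1.94, and EGF from 0.0975 ± 0.031 to 1.36 ± 0.378 CPM. EGF was near 0 untreated and passed the low-count filter only through drug-treated groups, so it could only rise. The vehicle also raised 2 of the 8, EREG to 413 ± 49.5 CPM, above its CKI level, and HBEGF to 129 ± 7.94 CPM, below it, while TGFA had 72 ± 6.64 and EGF 0.16 ± 0.043 CPM with vehicle. Of 9 partners of ADAM17 and ADAM10, only TSPAN5, a tetraspanin that binds ADAM10, was called, with 34.4 ± 1.93 CPM untreated and 75.4 ± 2.33 CPM with CKI. Of 7 inhibitors and clearance factors tested, TIMP2 (167 ± 1.2 to 657 ± 21.5 CPM) and TIMP4 rose and none fell. Of 11 ADAMTS matrix substrates tested, VWF, COL3A1 and THBS1 rose and none fell. COL3A1 was near 0 untreated and passed the low-count filter through drug-treated groups, so it could only rise. VWF, the substrate of ADAMTS13, rose from 1.32 ± 0.154 to 31.5 ± 1.63 CPM, with 1.54 ± 0.203 CPM in vehicle cells. THBS1 (thrombospondin 1) had 228 ± 3.93 CPM with CKI and 249 ± 16.7 CPM with vehicle, where it was called up too. TIMP2 had 185 ± 6.1 CPM with vehicle and was not called.

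The vehicle itself was compared with untreated A431 cells. ADAMTS9 rose (log2 change 1.13, SE 0.31, edgeR adjusted p = 0.0056) and ADAMTS15 fell (-1.03, SE 0.21, adjusted p = 0.00058), 2 of 32 members against 2.54% of all genes (1.05% up and 1.5% down). Among genes with a mean of at least 1 CPM, 1 member was called, against 1.99%. ADAMTS15 had 3.36, 4.36 and 3.48 CPM untreated and 1.96, 1.51 and 1.96 CPM with vehicle. Its call was lost without untreated replicate 2 (-0.901) or vehicle replicate 2 (-0.906). In this comparison the log2 changes of all genes ran against GC content (Spearman's rho -0.58 across genes). With offsets for GC content and length the values were 0.97 for ADAMTS9 and -0.81 for ADAMTS15, and neither passed the fold threshold.

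Doxorubicin was compared with untreated A431 cells, the control that the CKI comparison also used. It gave 20 calls among 32 members, 14 up and 6 down, or 62.5% against 37.3% of all genes (23% up and 14.3% down), ADAM11 among them as a description. Several of these members, ADAM22 and ADAMTS17 among them, passed the low-count filter only through the doxorubicin groups and so had to differ. Among the 21 members with a mean of at least 1 CPM over the A431 libraries, 8 were called, again with ADAM11 among them, against 29.3% of all such genes. The median log2 change of the members was 0.18 and that of all genes 0.02.

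None of the highly expressed sheddases was called up with doxorubicin. ADAM10, the main sheddase of Notch receptors, had 276, 297 and 286 CPM untreated and 117, 131 and 119 CPM with doxorubicin, with no overlap (log2 change -1.28, SE 0.06, edgeR adjusted p = 6.6e-15). ADAM19 fell from 32 ± 0.272 to 12.6 ± 0.563 CPM, and ADAM28 fell from 21.5 ± 1.16 to 2.85 ± 0.294 CPM (-2.96, SE 0.13, adjusted p = 1.7e-15). ADAM8 (147 ± 10.4 to 77.4 ± 3.63 CPM) had a log2 change of -0.98, just short of the fold threshold. ADAM17 had 42.6 ± 3.14 and 38.1 ± 1.32 CPM. ADAMTS9, ADAMTS12 and ADAMTS16 also fell. ADAMTS12 had 8.31 ± 0.965 CPM untreated and 4.04 ± 0.46 with doxorubicin, and ADAMTS16 had 2.69 ± 0.389 and 1.37 ± 0.64. The call for ADAMTS16 was lost without doxorubicin replicate 1 (-0.713) or untreated replicate 1 (-0.925).

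Most members that rose with doxorubicin started from low levels. ADAMTS1 was the exception in level, with 6.3, 5.29 and 6.02 CPM untreated and 34.4, 34.8 and 36 CPM with doxorubicin (log2 change 2.53, SE 0.12, edgeR adjusted p = 4.2e-15). ADAMTS7 rose from 1.61 ± 0.242 to 10.1 ± 0.697 CPM and ADAMTS13 from 2.04 ± 0.668 to 4.98 ± 0.247 CPM. ADAMTS17, mutated in a Weill-Marchesani-like syndrome, had 0.24, 0.496 and 0.186 CPM untreated and 6.79, 4.61 and 5.54 CPM with doxorubicin (4.09, SE 0.3). It passed the low-count filter only through the doxorubicin groups and so had to differ. ADAM21, a testis-enriched gene that lies beside its relative ADAM20 on chromosome 14, rose from 0.396 ± 0.221 to 1.74 ± 0.228 CPM, and reads of such relatives may be split. ADAMTS5 rose from 6 to 28 counts over the group, and against vehicle its log2 change was 0.635 and was not called.

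For 6 further members the untreated group held at most 2 counts, so the change is given from the counts. ADAM33, an asthma-associated protease, had 2 counts untreated and 83 with doxorubicin, a ratio of library-scaled levels of 35.6 (95% exact counting interval from 9.56 to 299). ADAMTS3 had 1 and 84 counts (72.2, from 12.6 to 2884), and ADAMTS4, an aggrecan-cleaving protease, had 2 and 91 counts (39.1, from 10.5 to 328). ADAM18, ADAM29 and ADAMTS19 had 0 counts untreated and were at least 3.15-fold, 8.3-fold and 5.73-fold higher with doxorubicin. Counting intervals and floors cover counting error only.

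Of 11 matrix substrates of the ADAMTS proteases tested, 9 were called up with doxorubicin and none down, beside 23% of all genes up and 14.3% down. At least 4 of the 9 had at most 2 counts untreated, passed the low-count filter through the doxorubicin groups and so had to differ. VCAN (versican) had 0 counts untreated and 59 with doxorubicin, ACAN (aggrecan) 1 and 47, COL1A2 1 and 56, and COL3A1 2 and 109. THBS1, named after its values were seen, was abundant and rose from 108 ± 3.06 to 442 ± 13.7 CPM. Of the LGI ligands of ADAM11, ADAM22 and ADAM23, 3 were tested and LGI1 and LGI4 rose. LGI4 had 3, 3.59 and 1.61 CPM untreated, 52.6, 44 and 44.4 with doxorubicin and 14.5, 16.7 and 15.2 CPM with both drugs. Unlike ADAM11, LGI4 was also called up with CKI alone. Among the ADAM10 and ADAM17 partners, TSPAN15 (166 ± 11.3 to 67.1 ± 3.87 CPM), TSPAN5 (34.4 ± 1.93 to 14.9 ± 1.27) and RHBDF2 (75.4 ± 1.36 to 35.9 ± 3.88), an iRhom that carries ADAM17 to the cell surface, fell and none rose. Of the inhibitors and clearance factors, TIMP2 rose to 667 ± 23.7 CPM, and TIMP3, which inhibits ADAM17 and aggrecanases, fell from 294 ± 8 to 139 ± 2.95 CPM, as did the clearance receptor LRP1.

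**Figure D5:**
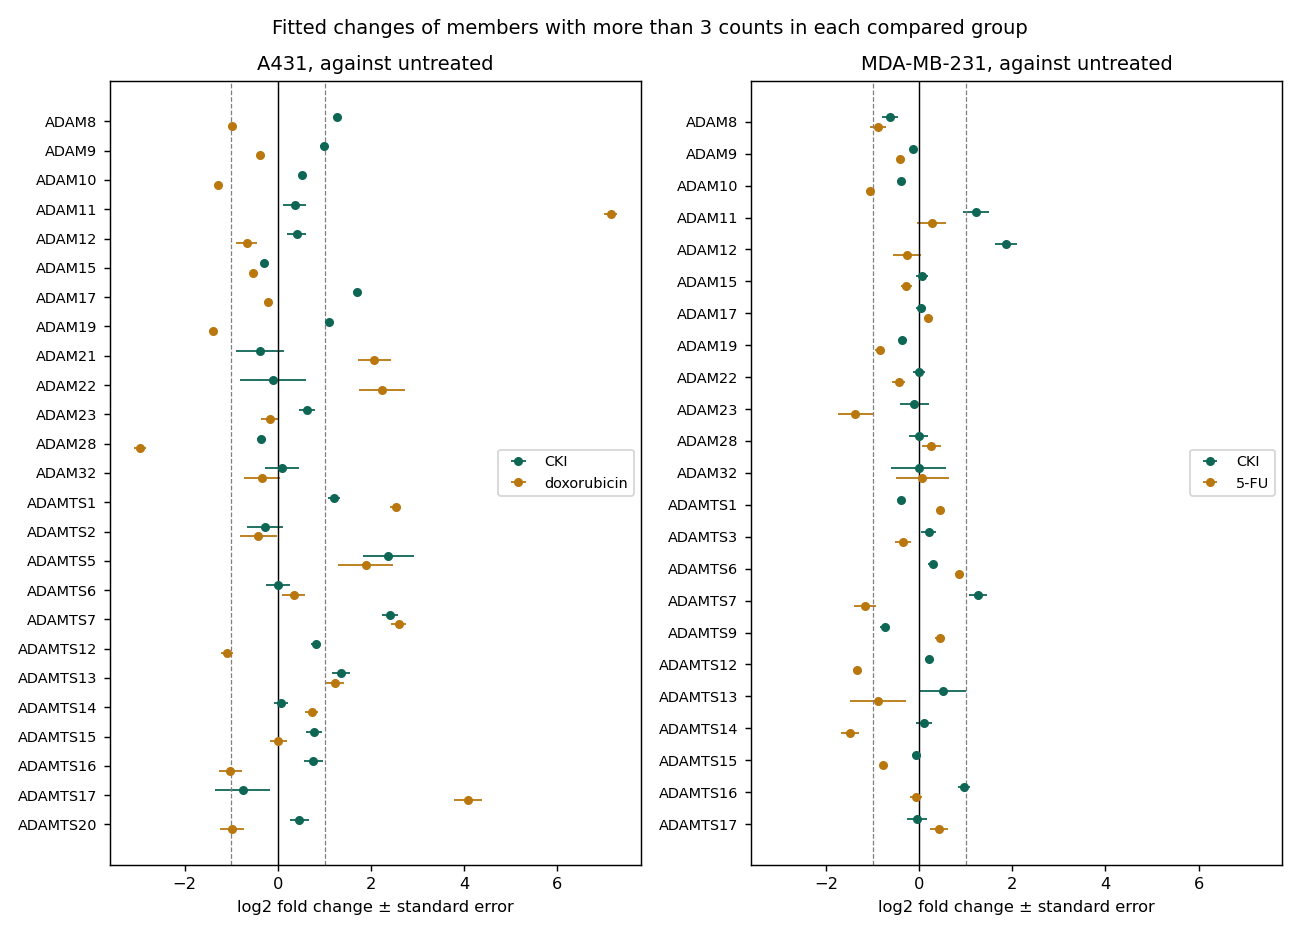
Fitted log2 fold changes against untreated cells (points) with their SE (bars) for members with more than 3 counts in each compared group, CKI in green and doxorubicin (A431, left) or 5-FU (MDA-MB-231, right) in brown, with dashed lines at the fold threshold. In A431 ADAM17 lies at 1.70 with CKI and -0.21 with doxorubicin, and the doxorubicin value of ADAM11 is drawn as a description.

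When doxorubicin was added to CKI, 17 of 32 members were called, 11 up and 6 down, against 25.7% of all genes (16.6% up and 9.06% down), ADAM11 among them as a description. Members low without doxorubicin, such as ADAM18, ADAM22, ADAMTS3, ADAMTS17 and ADAMTS19, passed the low-count filter only through the doxorubicin groups and so had to differ. Among the 21 members with a mean of at least 1 CPM, 7 were called, again with ADAM11 among them, against 17.6%. ADAM17 fell from 145 ± 3.36 to 68.4 ± 0.809 CPM (log2 change -1.03, SE 0.075, edgeR adjusted p = 3.7e-11), ADAM10 from 428 ± 7.18 to 139.8 ± 2.28 CPM and ADAM19 from 71.3 ± 1.85 to 22.7 ± 0.685 CPM. ADAMTS12 fell from 15.4 ± 0.81 to 3.38 ± 0.413 CPM (-2.14, SE 0.12, adjusted p = 5.9e-13), and ADAMTS15 from 6.68 ± 0.617 to 2.13 ± 0.439. ADAM28 fell from 17.5 ± 0.159 to 8.26 ± 1.6 CPM, a call lost without replicate 1 (-0.984) or 3 (-0.957) of the combination. With DESeq2 the changes were -0.983 for ADAM17 and -0.985 for ADAM28, short of the fold threshold. ADAM8 held 373 ± 14.9 CPM with CKI and 344 ± 12.8 with both, and ADAMTS7 8.99 ± 0.722 and 9.11 ± 0.563, with overlapping libraries in both genes. ADAMTS17 rose from 0.196 ± 0.126 to 2.78 ± 0.404 CPM, and ADAMTS9 from 0 to 22 counts, at least 6.78-fold. ADAM18 rose from 0 to 41 counts, at least 12.6-fold, ADAMTS3 from 2 to 98 counts (ratio 45.3, from 12.2 to 379) and ADAMTS19 from 1 to 42 (38.8, from 6.6 to 1569). ADAM21, ADAM22, ADAM29, ADAM33 and ADAMTS4 rose too, and ADAM11 was described above.

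When CKI was added to doxorubicin, the comparison that drew attention to ADAM11, 5 members passed the thresholds upwards and 3 downwards, beside 14.9% of all genes (6.89% up and 8.03% down). ADAM8 had 74.9, 81.6 and 75.8 CPM with doxorubicin and 359, 336 and 337 CPM with both. ADAM28 had 2.7, 3.19 and 2.67 CPM and then 7.55, 10.1 and 7.14 CPM. ADAMTS16 had 0.699, 1.97 and 1.44 CPM and then 7.03, 6.57 and 6.79 CPM. ADAM18 and ADAMTS19 were the other members above, from 11 to 41 and from 20 to 42 counts. ADAM18 no longer passed with DESeq2 (log2 difference 1.85). ADAMTS19 no longer passed without any 1 replicate of the combination or without doxorubicin replicate 2 or 3 (log2 difference from 0.685 to 1.19). Beside ADAM11, ADAMTS1 had 34.4, 34.8 and 36 CPM with doxorubicin and 15.7, 13.1 and 17 CPM with both, and ADAMTS4 had 1.5, 1.32 and 1.79 CPM and then 0.422, 0.773 and 0.507. The log2 difference of ADAM11, -5.16, is the value that led to its choice, so its rank among the members is not read. Those of ADAMTS16 and ADAM8 were 2.34 and 2.18.

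Whether the response to CKI differed with and without doxorubicin was tested as an interaction, and 10 of 32 members were called, 3 up and 7 down, or 31.2% against 19.5% of all genes (8.56% up and 10.9% down), ADAM11 among them as a description. ADAM28 had a lower level with CKI than without in the absence of doxorubicin (17.5 ± 0.159 against 21.5 ± 1.16 CPM) and a higher one in its presence (8.26 ± 1.6 against 2.85 ± 0.294), an interaction of 1.93 (SE 0.17, edgeR adjusted p = 3e-09). ADAMTS1 was higher with CKI than without in the absence of doxorubicin and lower in its presence (-2.37, SE 0.16, adjusted p = 2.7e-11). ADAMTS7 was at 8.99 to 10.1 CPM on average in each of the CKI, doxorubicin and combination groups and at 1.61 CPM untreated (-2.52, SE 0.21, adjusted p = 8.3e-10). ADAM17 and ADAM8 had interactions of -0.82 and 0.91, within the fold threshold.

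In MDA-MB-231 cells CKI raised 3 of 23 members tested, ADAM11, ADAM12 and ADAMTS7, and lowered none, against 5.96% of all genes (3.76% up and 2.21% down). ADAM12, a protease of insulin-like growth factor binding proteins, had 1.31, 1.06 and 0.736 CPM untreated and 4.11, 4.22 and 2.95 CPM with CKI, without overlap (log2 change 1.86, SE 0.24, edgeR adjusted p = 9.8e-05). ADAMTS7 had 1.89, 3 and 2.89 CPM untreated and 6.76, 5.47 and 6.56 CPM with CKI (1.26, SE 0.19, adjusted p = 0.00035). ADAMTS16 had 14.8 ± 2.01 CPM untreated and 28.7 ± 2.32 CPM with CKI, a log2 change of 0.96 that was short of the fold threshold. ADAM17 had 38.7, 46.5 and 51.2 CPM untreated and 44.7, 44.5 and 50.4 CPM with CKI, and the groups overlapped (0.04, SE 0.097, adjusted p = 0.81). Of 7 EGFR-family ligands tested none was called, and HBEGF, given here for its change in A431, had 102 ± 4.21 CPM untreated and 148 ± 1.41 CPM with CKI. Of 9 ADAM10 and ADAM17 partners none was called, and of 8 inhibitors and clearance factors TIMP4 rose and TIMP3 fell, from 885 ± 37.9 to 335 ± 10.9 CPM.

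5-FU lowered 5 of 23 members, ADAM10, ADAM23, ADAMTS7, ADAMTS12 and ADAMTS14, and raised none, against 13.3% of all genes (6.01% up and 7.31% down). ADAMTS12 had 58.9, 64.8 and 68.1 CPM untreated and 28.6, 22.8 and 23.8 CPM with 5-FU (log2 change -1.34, SE 0.089, edgeR adjusted p = 1.9e-07). ADAMTS14, a procollagen N-proteinase, had 7.98, 11.1 and 14.2 CPM and then 4.19, 3.64 and 3.89 CPM (-1.49, SE 0.19, adjusted p = 2.8e-05). ADAM10 had 263, 218 and 209.9 CPM and then 104, 108 and 117 CPM, and without untreated replicate 1 its log2 change was -0.959, short of the fold threshold. The change of ADAMTS7 was -1.16 and, with offsets for GC content and length, -0.953, where its call was lost. ADAMTS6, which acts on fibrillin microfibrils, had 8.11 ± 0.155 CPM untreated and 14.6 ± 0.983 with 5-FU (0.86). ADAMTS15 had 137 ± 14.6 and 79.5 ± 0.364 CPM (-0.77). TSPAN15 and RHBDF2 fell, as in the doxorubicin comparison of A431, from 53.9 ± 7.15 to 20.8 ± 0.15 and from 60.9 ± 20.6 to 22.2 ± 1.4 CPM. HBEGF rose to 229 ± 1.23 CPM.

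With 5-FU added to CKI, ADAMTS6 rose from 9.91 ± 0.82 to 23.8 ± 1.8 CPM (log2 change 1.27, SE 0.089, edgeR adjusted p = 3e-06), and ADAM23 and ADAMTS7 fell, 3 of 23 members against 3.81% of all genes (1.26% up and 2.54% down). ADAM23 had 54 counts with CKI and 28 with both (-1.01, adjusted p = 0.042), and its call was lost without CKI replicate 1 or 3 or without any replicate of the combination (log2 change from -1.17 to -0.781, edgeR adjusted p from 0.058 to 0.16). ADAMTS7 had 6.26 ± 0.693 and 3.05 ± 0.651 CPM (-1.03), and its call was lost without CKI replicate 1 (-0.967) or 3 (-0.996) or combination replicate 2 (-0.886). In this comparison the changes of all genes ran against GC content with a rho of -0.52, and with GC content and length offsets the change of ADAMTS7 was -0.574. With CKI added to 5-FU, ADAM12, ADAMTS7 and ADAMTS12 rose and ADAMTS9 fell, 4 of 23 against 9.77% of all genes (5.26% up and 4.51% down). ADAM12 had 0.853 ± 0.296 CPM with 5-FU and 3.38 ± 0.14 with both, and ADAMTS12 had 25.1 ± 3.13 and 58.6 ± 2.99 CPM. ADAMTS9 had 18.2, 23.2 and 25.8 CPM untreated, 12.7, 14.4 and 13.4 with CKI, 30.9, 29.8 and 29.3 with 5-FU and 11.6, 10.9 and 10.5 CPM with both. The fall against 5-FU alone was -1.45 (SE 0.11, edgeR adjusted p = 1.3e-06).

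Whether CKI acted differently in MDA-MB-231 with and without 5-FU was tested as an interaction, in which 1 of 23 members was called, up, against 6.84% of all genes (3.04% up and 3.81% down). It was ADAMTS12, whose level with CKI was 74.6 ± 1.64 CPM against 63.9 ± 4.67 untreated and, under 5-FU, 58.6 ± 2.99 against 25.1 ± 3.13 CPM (interaction 1.00, SE 0.12, edgeR adjusted p = 0.00013). The value lay at the fold threshold, and leaving out any 1 of 8 libraries, 2 replicates each of the untreated, CKI, 5-FU and combination groups, moved it to between 0.941 and 0.992 and off the call. Among genes with a mean of at least 1 CPM, of which 6.36% were called, it was 0.993.

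The response to CKI was compared directly between the lines. Of 26 members tested, 7 had a positive interaction (log2 change in A431 above that in MDA-MB-231) and 2 a negative one. Together they were 34.6% against 18.5% of all genes (8.87% positive and 9.62% negative). ADAM17 had an interaction of 1.67 (SE 0.14, edgeR adjusted p = 7.6e-07), with its level going from 42.6 ± 3.14 to 145 ± 3.36 CPM in A431 and from 45.4 ± 6.32 to 46.5 ± 3.34 CPM in MDA-MB-231. ADAM8 was higher with CKI in A431 and in MDA-MB-231 had 208, 345 and 378 CPM untreated and 190.3, 213 and 201 CPM with CKI, which overlap (interaction 1.90, SE 0.23, adjusted p = 1.7e-05). ADAM9, ADAM19, ADAMTS1, ADAMTS5 and ADAMTS7 were the other members with the larger change in A431. ADAMTS5 passed the low-count filter of this fit only through the A431 CKI group and so had to differ. ADAMTS7 passed the thresholds in both lines. ADAM12 had the larger change in MDA-MB-231 (-1.46, SE 0.3, adjusted p = 0.0014). ADAMTS9, the other member with a negative interaction, was lower with CKI in both lines and fell further in A431. It went from 0.649 ± 0.103 CPM to 0 counts in A431 and from 22.4 ± 3.86 to 13.5 ± 0.859 CPM in MDA-MB-231. With vehicle in place of untreated A431 cells the interaction was 0.585 for ADAM9, 0.642 for ADAMTS1 and 1.56 for ADAMTS5 (edgeR adjusted p = 0.11), and these 3 calls were lost. Of 7 EGFR-family ligands tested, HBEGF (1.90, SE 0.1, edgeR adjusted p = 2.8e-08), EREG and EGF had the larger change in A431.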

How the data were processed

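Total RNA of 27 cell line libraries was sequenced as paired, unstranded reads. The authors trimmed reads with Trim Galore 0.3.7 and aligned them to hg19 (GRCh37) with STAR 2.5.3a, per the labels, and deposited raw counts per gene without normalization. The counting tool and annotation are not given in the sources used here. All 27 columns were matched to a sample, and groups came from the labels. Tests used edgeR 4.0.16 under R 4.3.3 (TMM, filterByExpr, glmQLFit, glmQLFTest) with all groups of a line in the fit, and for contrasts of the lines the untreated and CKI groups of both. A call needed an edgeR Benjamini-Hochberg adjusted p under 0.05 together with a change beyond 1 on the log2 scale. The SE of a log2 change was derived from the test, as its size divided by the square root of the quasi-likelihood F statistic. Named members had a mean of at least 1 CPM in a group or a call in a comparison, and other genes came from lists of inhibitors, partners, convertases, shed ligands and proteins, matrix substrates, ADAMTS-like proteins and LGI ligands, at most 4 called genes of largest change for each, with values for some others. The members and lists were chosen with earlier results of these data known. Genes were named through RefSeq (24422 IDs matched), with coordinates, length and GC content from a GRCh37 annotation (99.5% of rows). Groups at 0 counts were set against a floor of 3 counts. The fits were tested on simulated data. Alternatives were DESeq2 1.42.0, RLE factors, no filter on low counts, compared groups only, the adjusted p alone, vehicle as control, GC content and length offsets (lowess span 0.3), a replicate block, leaving out each replicate, and, chosen after seeing the data, a mean of at least 1 CPM. Same-numbered libraries did not deviate together, so numbers were not taken as pairs.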

Additional observations from a re-analysis of the deposited data

Results flagged for a closer look

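These results were singled out because the effect of 1 treatment differed between 2 settings by an interaction test in edgeR (log2 scale, SE, Benjamini-Hochberg adjusted p). The response of A431 cells to CKI differed with and without doxorubicin for 10 members. ADAM11 had an interaction of -5.52 (SE 0.29), given as a description since its levels in these libraries led to its choice. ADAM28 had 1.93 (SE 0.17, adjusted p = 3e-09) and ADAMTS16 had 1.58 (SE 0.29, adjusted p = 7.2e-05). ADAMTS1 had -2.37 (SE 0.16, adjusted p = 2.7e-11), ADAMTS7 had -2.52 (SE 0.21, adjusted p = 8.3e-10) and ADAMTS13 had -2.19 (SE 0.27, adjusted p = 2.7e-07). ADAMTS15 had -1.61 (SE 0.26, adjusted p = 1.6e-05). ADAMTS12 had -1.05 (SE 0.19, adjusted p = 4.3e-05), and without combination replicate 2 (-0.992), doxorubicin replicate 3 (-0.974) or untreated replicate 3 (-0.962), or with offsets for GC content and length (-0.834), it fell within the fold threshold. With vehicle as the control it was -0.41 (edgeR adjusted p = 0.055). ADAM33, with 2 counts in the untreated group, had -2.11 (SE 0.89, adjusted p = 0.048), and its call was lost in 11 of the 12 fits that left out 1 library of the compared groups, all but that without CKI replicate 1. ADAMTS9 had 7.27, a value that depends on the prior count since its CKI libraries held 0 counts.

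In MDA-MB-231 the response to CKI differed with and without 5-FU for ADAMTS12, with 1.00 (SE 0.12, adjusted p = 0.00013). The value lay at the fold threshold. Its call was lost with DESeq2 (0.998), with RLE factors (0.995), with offsets for GC content and length (0.965) and when some single libraries were left out.

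Between untreated and CKI-treated cells of the 2 lines, the response was larger in A431 for ADAM17 at 1.67 (SE 0.14, adjusted p = 7.6e-07), ADAM8 at 1.90 (SE 0.23, adjusted p = 1.7e-05), ADAM19 at 1.46 (SE 0.13, adjusted p = 1.9e-06), ADAM9 at 1.12 (SE 0.091, adjusted p = 6.4e-07), ADAMTS1 at 1.58 (SE 0.18, adjusted p = 9.7e-06) and ADAMTS7 at 1.15 (SE 0.26, adjusted p = 0.0025). ADAMTS5 had 2.82 (SE 0.72), but passed the low-count filter only through the A431 CKI group and so had to differ. The response was larger in MDA-MB-231 for ADAM12, at -1.46 (SE 0.3, adjusted p = 0.0014). ADAMTS9 had -5.96, again with 0 counts in its A431 CKI libraries, and fell further in A431 than in MDA-MB-231. With vehicle as the A431 control ADAM9 (0.585), ADAMTS1 (0.642) and ADAMTS5 (1.56, edgeR adjusted p = 0.11) lost their calls. With offsets for GC content and length ADAM9 had 0.908 and lost its call.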

How the results depend on the processing

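Of 109 called member results, 82 kept their direction and call under every alternative that tested the member. The 109 include the doxorubicin results of ADAM11, which are a description. They also include members that passed the low-count filter only through the group where they are high, which had to differ. The 82 is thus not a measure of how sound the calls are. The other 27 results lost the call under at least 1 alternative, and none reversed. An alternative that left a member untested, as a stricter filter does for members near 0, was not counted for it. The adjusted p alone could not end a call. Of 203 counts of called members under an alternative, 172 lay within 1.5 times the reported count. The counts that follow are given without the share of all genes at the same setting. They show how far a count moved and are not read as a response of the family. With the adjusted p alone the counts were 16 for CKI in A431, 26 for doxorubicin added to CKI, 20 for CKI added to doxorubicin, 12 for vehicle, 13 for 5-FU, 10 for CKI in MDA-MB-231, 8 for the interaction of CKI and 5-FU, 13 for CKI added to 5-FU and 11 for 5-FU added to CKI. Many genes pass without a fold threshold. For CKI in A431, 11007 of all 15881 genes tested had an edgeR p under 0.05 before adjustment. With a mean of at least 1 CPM they were 7 for doxorubicin added to CKI, 8 for doxorubicin, 1 for vehicle and 0 for the interaction of CKI and 5-FU, a setting that tests fewer genes. With GC content and length offsets the vehicle count was 0, and the interaction of CKI and 5-FU had 0 with these offsets, with DESeq2 and with RLE factors, where the cause was not tested. Leaving out 1 library gave 1 to 3 for vehicle, 8 to 9 for CKI in A431, 20 to 24 for doxorubicin, 19 to 22 for doxorubicin added to CKI, 8 to 9 for CKI added to doxorubicin, 8 to 11 for the interaction of CKI and doxorubicin, 2 to 4 for CKI in MDA-MB-231, 5 for 5-FU, 1 to 3 for 5-FU added to CKI, 4 to 5 for CKI added to 5-FU, 0 to 2 for the interaction of CKI and 5-FU, 18 to 19 between the untreated lines and 9 to 11 for the interaction of line and CKI. With the replicate number as a block the counts were 8 for CKI in A431, 20 for doxorubicin, 17 and 7 for the additions of doxorubicin and of CKI, 9 for their interaction, 2 for vehicle, 3 and 5 for CKI and 5-FU in MDA-MB-231, 2 and 4 for the additions of 5-FU and of CKI, 1 for their interaction, 18 between the lines and 9 for the interaction of line and CKI, and same-numbered libraries had correlated deviations of at most 0.1. The fit of compared groups only was already the reported fit for the interactions of CKI and 5-FU and of line and CKI. At this depth 3 counts are 0.133 to 0.186 TMM-scaled CPM, which limits the members near 0.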

Other observations

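Lists of other genes of these pathways gave the following counts, beside 22.4% of all genes called with CKI and 37.3% with doxorubicin in A431, and 5.96% with CKI and 13.3% with 5-FU in MDA-MB-231. Of 4 proprotein convertases, which cut the prodomain off ADAM and ADAMTS proteins, CKI raised PCSK5 in A431, from 17.8 ± 1.74 to 41.4 ± 1.19 CPM, and doxorubicin changed none past the thresholds. Of 3 tested in MDA-MB-231, neither CKI nor 5-FU changed any past the thresholds. Of 5 ADAMTS-like genes tested, which lack the protease domain, CKI raised THSD4 (log2 change 1.79, SE 0.082, edgeR adjusted p = 6.3e-15) and ADAMTSL4 (1.77, SE 0.081, edgeR adjusted p = 6.3e-15) in A431. Doxorubicin raised ADAMTSL1, ADAMTSL3 and ADAMTSL4 and lowered 2, with THSD4 at -1.65 (SE 0.093, edgeR adjusted p = 1.9e-13). In MDA-MB-231, of 5 tested, CKI changed none past the thresholds, and 5-FU raised ADAMTSL5 and lowered THSD4.

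Of 18 other shed membrane proteins tested in A431, CKI raised CDH2, TNFRSF1B and SDC1 and lowered none, against 22.4% of all genes. Doxorubicin raised 4, with TNFRSF1B at 3.61 (SE 0.22, edgeR adjusted p = 5.3e-13), and lowered 5, with PTK7 at -2.07 (SE 0.067, edgeR adjusted p = 1.1e-17). Of 18 tested in MDA-MB-231, CKI raised 4 and lowered VCAM1 (-2.51, SE 0.11, edgeR adjusted p = 2.1e-08). 5-FU raised IL6R (3.32, SE 0.3, edgeR adjusted p = 2e-06) among 3 and lowered L1CAM and VCAM1.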
